A study of Mus musculus with 7 samples.

Results

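The 4 mouse neurexophilin genes, Nxph1, Nxph2, Nxph3 and Nxph4, were taken by name from the 25871 gene columns of single-nucleus RNA tables. They were set beside the 1 of 287 screened gene regulatory elements (GREs) whose annotation names a neurexophilin, GRE83 for Nxph1, and beside the 225 of 323369 ATAC reference regions whose middle lies closer to the start of a neurexophilin than to that of any other protein-coding gene. Neurexophilins are small secreted glycoproteins that bind the extracellular part of alpha-neurexins, the presynaptic adhesion molecules that meet neuroligins, LRRTM proteins, cerebellins and other partners across the synaptic cleft. In cortex they are known as markers of particular neurons, with Nxph1 used as a label of inhibitory interneurons and Nxph3 of neurons in the deepest layers.

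The RNA came from the primary visual cortex of 6 to 10 week old C57BL/6J mice injected with an AAV9 library (SST PESCA AAV9) in which each GRE sits before a minimal promoter and a GFP transcript that carries 1 of 3 barcodes for that GRE. It is 1 sample of 10 libraries in 2 sets of 5 (1-1 to 1-5 and 2-1 to 2-5). The methods describe 2 animals with 5 libraries from each, but the labels do not tie a library to an animal, and no uninjected nuclei were included. Differences between nucleus classes are therefore given as values with counting intervals and no test. The ATAC libraries came from whole cortex of uninjected 6 to 12 week old mice that carried the Cre-dependent nuclear tag SUN1-2xsfGFP-6xMYC with Pv-Cre (PV), Vip-IRES-Cre (VIP) or Sst-IRES-Cre (SST), 2 libraries each. In these mice Cre from the Pvalb, Vip or Sst locus marks every nucleus in which that locus is or has been active, and anti-GFP purification collects them together. The methods describe separate experiments, each on the nuclei of a single animal, so the p-values rest on 2 animals a group. These genes and this element were picked with results of these files known, and GRE83 entered the library because it ranked high in ATAC signal in SST over PV and VIP nuclei. Its levels, and those of the 4 genes by class, are therefore a description.

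A level below is the number of unique molecular identifiers (UMIs) of a gene per 10000 non-viral UMIs, summed over the nuclei of a class, with a 95% Poisson interval that covers counting error only. Nuclei with over 200 non-viral UMIs were kept (32335 of 47348 barcodes, 2457 to 3629 per library), and 10711 of them passed exactly 1 marker gate. The gates held 745 SST, 302 PV, 414 VIP and 332 NPY nuclei (Npy with Gad1, Gad2 or Slc32a1, and Sst, Vip and Pvalb under their own minimums), 1146 other inhibitory nuclei, 4251 excitatory nuclei, 1371 astrocytes, 1255 oligodendrocytes, 250 oligodendrocyte precursor cells (OPCs), 212 microglia and 433 vascular nuclei. By the gates themselves, Sst stood at 161 in SST nuclei and at most at 0.876 in any other class, and Pdgfra, the receptor that defines OPCs, at 83.5 in OPCs and at most at 0.687 elsewhere. Of the 302 PV nuclei, 42 had no Gad1, Gad2 or Slc32a1 UMI. Among kept nuclei 5476 of 25866 barcode names occurred in over 1 library, and none of those shared a whole count profile. In the ATAC libraries the regions within 2 kb of the Sst start held 22.6 and 24.8 reads per 1000000 reads in reference regions (CPM) in SST against 1.02 to 2.78 elsewhere, and those at Vip 13.4 and 17.9 in VIP against 0.508 to 3.67. The region at Pvalb held few reads in all 6 libraries, 2.03 and 3.88 in PV, 0.993 and 0.894 in VIP, and 0 and 2.22 in SST, so the PV label rests on the cross and not on this promoter.

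GRE83 and the promoter windows of Nxph1 and Nxph2 are shown because they lie within the stretches that gave the viral and ATAC values below. Per the methods, the cloned insert of each GRE also held flanking sequence on both sides. That flanking sequence is not printed here and was not searched for motifs. The ATAC values belong to wider reference regions, of 601 bases around GRE83. GRE83 spans chr6:9842485-9842784 (mm10, plus strand). The label of a nearby enhancer holds only in the sense of the nearest gene: its middle lies 894 kb past the Nxph1 start and 594 kb past the end of the gene, in intergenic sequence. Nxph1 itself (ENSMUSG00000046178.3) runs from chr6:8948431-9249032. The other sequences are the RefSeq promoter windows of the same build, 250 bases before to 50 after the RefSeq start, of Nxph1 (chr6:8949769-8950068, plus strand) and Nxph2 (chr2:23320996-23321295, plus strand). For Nxph2 the RefSeq and GENCODE starts are the same, but for Nxph1 they differ: the window begins 1338 bases past the GENCODE start, from which distances and gene positions are counted here, and does not cover it. Capitals mark the letters CANNTG, the E-box bound by basic helix-loop-helix factors.
GRE83: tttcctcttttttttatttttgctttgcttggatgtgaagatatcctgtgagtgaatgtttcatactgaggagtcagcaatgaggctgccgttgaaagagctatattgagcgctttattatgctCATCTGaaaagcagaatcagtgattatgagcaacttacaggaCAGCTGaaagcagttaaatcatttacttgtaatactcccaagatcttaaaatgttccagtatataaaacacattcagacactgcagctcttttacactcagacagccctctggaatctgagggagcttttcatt
Nxph1 promoter: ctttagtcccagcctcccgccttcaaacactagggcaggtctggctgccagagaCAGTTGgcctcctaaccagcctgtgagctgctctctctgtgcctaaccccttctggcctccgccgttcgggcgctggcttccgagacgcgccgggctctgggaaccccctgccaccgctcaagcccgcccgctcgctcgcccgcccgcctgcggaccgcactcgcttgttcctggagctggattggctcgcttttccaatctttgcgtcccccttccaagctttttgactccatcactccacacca
Nxph2 promoter: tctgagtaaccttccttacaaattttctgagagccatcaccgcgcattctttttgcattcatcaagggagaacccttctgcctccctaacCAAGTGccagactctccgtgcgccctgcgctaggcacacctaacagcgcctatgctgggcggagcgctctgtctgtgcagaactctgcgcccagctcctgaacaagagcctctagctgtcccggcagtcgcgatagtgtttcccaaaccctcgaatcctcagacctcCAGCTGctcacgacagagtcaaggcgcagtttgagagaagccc
Of 6 motifs searched on both strands (CANNTG, the homeodomain core TAATTA, the AP-1 site TGANTCA, the SOX letters ACAATG, the CRE letters TGACGT, and CTA and TAG spaced by 4 bases as in the MEF2 motif), CANNTG alone was found, 2 times in GRE83, at bases 125 to 130 and 167 to 172, 1 time in the Nxph1 window and 2 times in the Nxph2 window. It is a common sequence, held by 85.5% of 323354 reference regions cut to 300 bases, by 95.5% of the 287 GREs and by 72.3% of 32851 promoter windows. TAATTA was held by 4.91% of the regions, TGANTCA by 13.0%, ACAATG by 12.9%, TGACGT by 3.99% and the spaced letters by 4.05%. GRE83 had 38.0% G and C against a median of 41.3% over the GREs, whereas the Nxph1 window had 64.0% and the Nxph2 window 56.0% against a median of 52.7% over all promoter windows. The 601-base reference region around GRE83 had a mean placental phyloP score of 1.02, above that of 97.7% of reference regions, and conservation was one of the authors' criteria for entry.

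Nxph1, the founding member of the family, was high in 5 of the 11 classes, 4 of them inhibitory and 1 glial, and near background in the other 6. Its level was 4.87 (4.39 to 5.39, 373 UMIs) in SST nuclei, 4.23 (3.11 to 5.63, 47 UMIs) in OPCs, 3.97 (3.33 to 4.71, 133 UMIs) in NPY nuclei and 2.96 (2.47 to 3.52, 126 UMIs) in PV nuclei. Other inhibitory nuclei stood at 2.14 (1.89 to 2.41, 270 UMIs). VIP nuclei, the remaining inhibitory class, stood at 0.187 (0.0688 to 0.408, 6 UMIs), close to the 0.109 (0.0834 to 0.141, 60 UMIs) of excitatory nuclei. Non-neuronal classes other than OPCs held 2 to 8 UMIs each, at 0.0442 in vascular nuclei, 0.0506 in oligodendrocytes, 0.0833 in astrocytes and 0.159 in microglia. Vascular nuclei stood at 0.0168 without library 2-4, astrocytes at 0.0480 without library 1-3 and microglia at 0.0866 without library 2-2. Barcodes with 200 or fewer UMIs, taken here as background, stood at 0.374 (0.290 to 0.474, 68 UMIs). Whether they are empty droplets or small nuclei was not tested. The VIP, excitatory and other low values lie at or below this background, while the SST level was 13.0 times it (10.1 to 17.2).

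**Figure D1:**
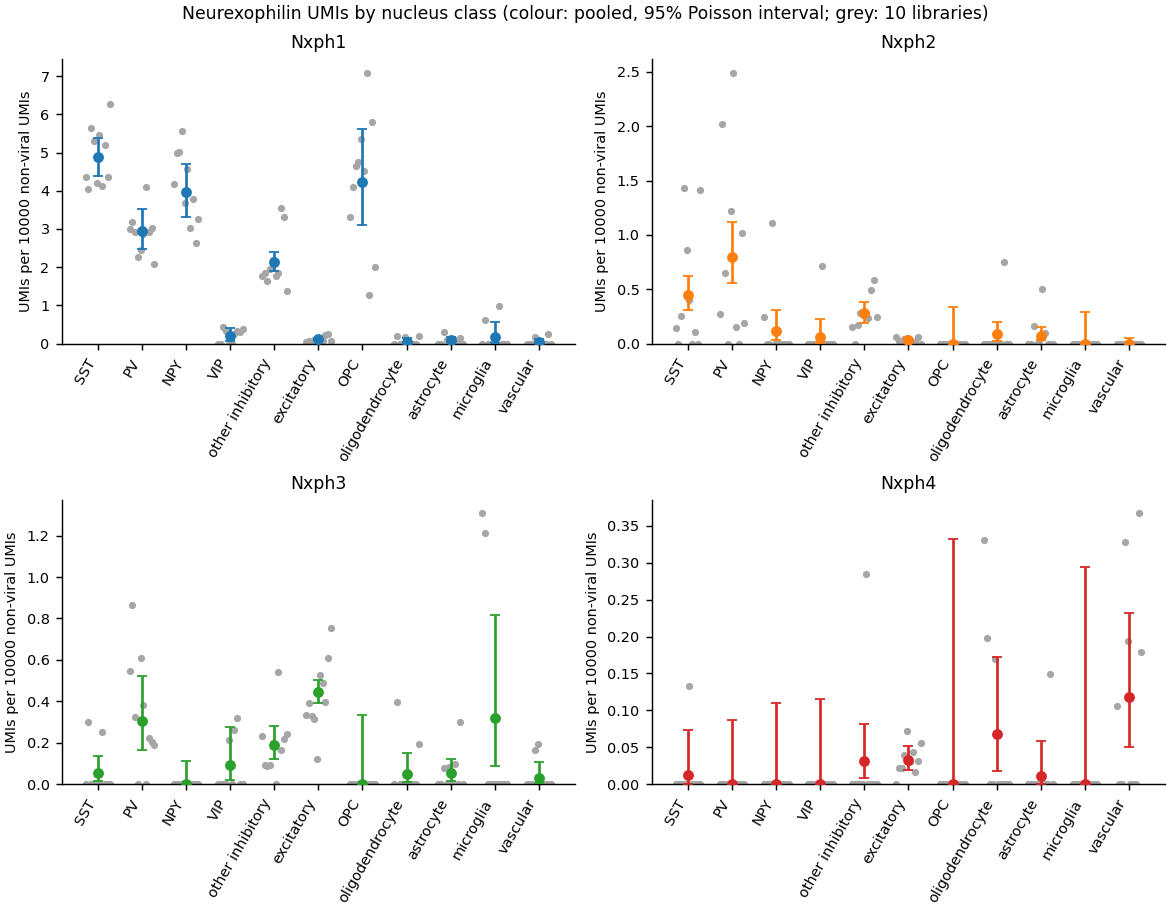
Level of each neurexophilin (UMIs per 10000 non-viral UMIs, vertical axis, its own scale in each panel) in the 11 nucleus classes (horizontal axis); coloured points are pooled levels with 95% Poisson intervals and grey points the 10 libraries. Nxph1 is high in SST, OPC, NPY and PV nuclei and near 0 in VIP nuclei, Nxph2 is low and found in PV and SST nuclei, Nxph3 is found mainly in excitatory nuclei, and Nxph4 is low in every class, with 0.118 in vascular nuclei the highest.

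The order at the top was not firm throughout. Across the 10 libraries the SST level ran from 4.05 to 6.27 with a median of 4.78, the PV level from 2.09 to 4.11 with a median of 2.92 and the NPY level from 2.62 to 5.57 with a median of 3.98. SST exceeded PV in 10 of 10 libraries, by 1.65 times pooled (1.34 to 2.03), and 1 PV library (4.11) lay inside the SST range. With doubled marker minimums the pooled ratio was 1.32 (0.967 to 1.84) and did not stand clear of 1. SST exceeded NPY in 8 of 10 libraries, by 1.23 times (1.00 to 1.51), and NPY exceeded PV by 1.34 times (1.04 to 1.73). By clusters made without the Nxph genes and viral barcodes the latter order turned, with NPY at 3.42 and PV at 3.74. Of the 1281 nuclei in the PV cluster 21.6% were in the PV gate. In the NPY cluster 71.3% were in the NPY gate, and in the SST cluster 78.4% in the SST gate. OPCs ran from 1.27 to 7.09, the widest range of these classes, with 19 to 33 nuclei per library, and neither the SST over OPC ratio of 1.15 (0.849 to 1.60) nor the OPC over NPY ratio of 1.06 (0.747 to 1.50) stood clear of 1. VIP ran from 0 to 0.429 and never reached the lowest PV library, and SST stood 26.0 times above it (11.8 to 71.3). That ratio rests on 6 VIP UMIs and was 17.3 with 0.1 per 10000 added. In nuclei with over 500 UMIs it was 42.6 (14.5 to 208), on 3 VIP UMIs. Between library sets NPY nuclei held 4.66 in the first and 3.30 in the second, while SST nuclei held 4.70 and 5.04 and PV nuclei 2.79 and 3.06.

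SST nuclei with and without UMIs of Npy, a neuropeptide that divides SST interneurons, had similar Nxph1 levels. The groups differed in depth, with medians of 1086 UMIs (2 or more Npy UMIs) and 720 (none), and in Sst, at 207 and 104. A nucleus with no Npy UMI is therefore not shown to lack Npy. The 315 SST nuclei with 2 or more Npy UMIs stood at 4.81 (4.14 to 5.55) and the 325 with none at 4.92 (4.14 to 5.81), a ratio of 0.978 (0.781 to 1.23), higher in 5 of 10 libraries. By nuclei with at least 1 Nxph1 UMI, the shares were 34.1% of SST (exact binomial 95% interval 30.7 to 37.6), 29.8% of PV (24.7 to 35.3), 29.8% of NPY (24.9 to 35.1), 16.8% of OPCs (12.4 to 22.0), 1.45% of VIP (0.534 to 3.13) and 1.01% of excitatory nuclei (0.733 to 1.36). Median depth was 892, 1364.5, 947, 333, 645.5 and 1177 UMIs in the same order. Thinned to 300 UMIs a nucleus, the shares were 13.5% of 676 SST, 11.1% of 153 OPC, 10.8% of 315 NPY, 7.51% of 293 PV, 1.09% of 367 VIP and 0.490% of 4081 excitatory nuclei, so at equal depth OPCs stood beside the interneurons.

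Interneuron markers stood at low levels in OPC nuclei, and their part in the Nxph1 level was not tested. Sst stood at 0.810 in OPCs, 0.523 in oligodendrocytes and 0.876 in microglia, and Pvalb at 0.360, 0.0844 and 0.239. Lhx6, a transcription factor of SST and PV interneurons, stood at 0.0900 in OPCs and 0.706 in SST nuclei, and Gad1 was held at 0 in OPCs by the gate. Nxph1 UMIs were found in OPCs of 10 of 10 libraries, in 42 of 250 nuclei. The level was 83.5 times that of oligodendrocytes (26.9 to 420), which descend from OPCs, and 50.8 times that of astrocytes (23.8 to 124). The former rests on 3 oligodendrocyte UMIs and ran from 28.7 with 0.1 per 10000 added, through 43.6 by clusters, to 254 with doubled marker minimums. It was higher by over 2 times, as were 13.1% of the 6494 genes with 20 or more UMIs over both classes, and 13.0% were lower by as much. A grouping of all nuclei into clusters made without the Nxph genes and viral barcodes gave a separate OPC cluster of 430 nuclei with 78 Nxph1 UMIs, a level of 4.24.

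Within excitatory nuclei, those with layer markers held none in layer 2/3 (202 nuclei, 349464 UMIs), none in layer 4 (169 nuclei, 283604 UMIs) and none in layer 6b (69 nuclei, 103990 UMIs), 2 in layer 6, and 17 in layer 5 (0.285, 0.166 to 0.457), where 11 of 311 nuclei carried them and the library values ran from 0 to 1.33. Library 2-4 gave 9 of the 17, and without it layer 5 stood at 0.152. The layer 5 level was near the background of 0.374 and the others were below it.

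Nxph2, another secreted member of the family, was found in PV and SST nuclei at low counts. It stood at 0.799 (0.553 to 1.12, 34 UMIs) in PV nuclei and 0.444 (0.308 to 0.621, 34 UMIs) in SST nuclei, at 0.277 (0.193 to 0.385) in other inhibitory nuclei, and at 0.119 in NPY and 0.0625 in VIP nuclei, on 4 and 2 UMIs. Excitatory nuclei held 0.0310 (0.0180 to 0.0496, 17 UMIs), below the 0.104 of low-UMI barcodes, and OPCs, microglia and vascular nuclei none. The UMIs sat in few nuclei, 13 of 302 PV nuclei and 15 of 745 SST nuclei. Library values ran from 0 to 2.49 in PV and from 0 to 1.43 in SST, so that PV covered the whole SST range, and SST exceeded PV in 3 of 10 libraries. The pooled SST over PV ratio was 0.556 (0.336 to 0.922). Its interval treats UMIs as independent, although they sat in few nuclei. When the markers required of each gate were doubled, the ratio turned to the other side, but on 3 PV and 19 SST UMIs. As PV over SST it was then 0.784 (0.149 to 2.66), which did not stand clear of 1. Library 2-1 gave 13 of the 34 PV UMIs, and without it PV over SST was 1.25 (0.684 to 2.25). Both VIP UMIs came from library 2-1, without which VIP nuclei held none. Of the 4 NPY UMIs, 3 came from library 1-4, without which NPY nuclei stood at 0.0325.

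Nxph3, known from deep cortical layers, had the opposite distribution. It stood at 0.445 (0.391 to 0.504, 244 UMIs) in excitatory nuclei against 0.0523 (0.0142 to 0.134, 4 UMIs) in SST, 0.0937 in VIP and 0 in NPY nuclei. Excitatory nuclei exceeded SST nuclei 8.51 times (3.28 to 31.5), in 10 of 10 libraries, but the 4 SST UMIs came from libraries 1-2 and 2-2, and the value was 15.7 without the former and 15.02 without the latter. Among the inhibitory gates PV nuclei held the most, at 0.305 (0.163 to 0.522, 13 UMIs), and other inhibitory nuclei held 0.190 (24 UMIs). The gated excitatory over PV ratio of 1.46 (0.836 to 2.77) did not stand clear of 1. By clusters PV held 0.143 on 19 UMIs, near VIP (0.112) and below excitatory nuclei (0.366). Microglia held 0.318 on 4 UMIs, all in library set 1. Low-UMI barcodes stood at 0.209 (0.148 to 0.287), so only the excitatory level lay clear above background. Within excitatory nuclei the level in library set 1 was 0.302 and in set 2 it was 0.549.

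Of the 4251 excitatory nuclei, 1002 were given a layer, and among these the Nxph3 values rose from the surface downward. The values of layers 2/3 and 4 lay below the low-UMI background of 0.209, so their order is not firm. Nuclei with markers of layer 2/3 stood at 0.0572 (2 UMIs), layer 4 at 0.106 (3 UMIs), layer 5 at 0.537 (0.367 to 0.758, 32 UMIs), layer 6 at 1.13 (0.824 to 1.50, 46 UMIs) and layer 6b at 1.73 (1.03 to 2.74, 18 UMIs). Layer 6 exceeded layer 5 by 2.09 times (1.31 to 3.40), in 8 of 10 libraries, and layer 4 by 10.6 times (3.42 to 53.5), in 10 of 10. Of the 3 layer 4 UMIs, 2 came from library 2-5, without which the layer 4 level was 0.0405, and so did both layer 2/3 UMIs, without which that level was 0. Layer 6b over layer 6 was 1.54 (0.839 to 2.70), in 6 of 10, with 1 to 11 layer 6b nuclei per library, so the deepest pair were not told apart. In layer 6 the 10 libraries ran from 0.545 to 2.09 with a median of 0.946, and every library had at least 1 UMI. Nuclei with an Nxph3 UMI made up 15.1% (10.9 to 20.2) of layer 6 and 21.7% (12.7 to 33.3) of layer 6b nuclei, against 0.990% (0.120 to 3.53) of layer 2/3 nuclei, at median depths of 1444, 1343 and 1488.5 UMIs.

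**Figure D2:**
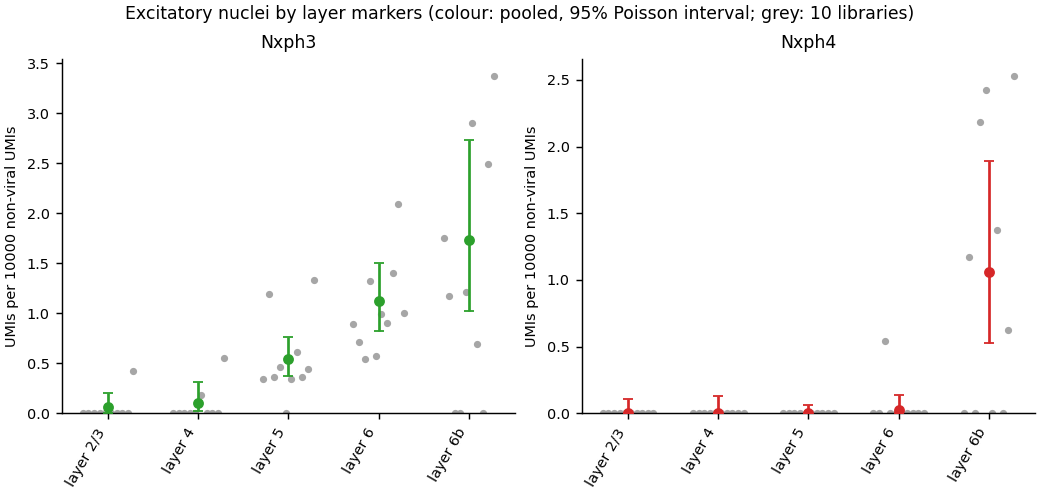
Level of Nxph3 (left) and Nxph4 (right) in excitatory nuclei with markers of each layer (UMIs per 10000 non-viral UMIs; coloured points, pooled with 95% Poisson intervals; grey points, 10 libraries). Nxph3 runs from 0.0572 in layer 2/3 to 1.73 in layer 6b, with layers 2/3 and 4 below the low-UMI background of 0.209. Nxph4 is at 0 in layers 2/3 to 5 and at 1.06 in layer 6b.

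Nxph4 was close to the limit of detection, with 86 UMIs in all kept nuclei, and it stood above background in layer 6b and in vascular nuclei. In layer 6b 7 of 69 nuclei held 11 UMIs, a level of 1.06 (0.528 to 1.89), spread over 6 of 10 libraries, with 5 UMIs in library set 1 and 6 in set 2. Layer 6 held 1 UMI, and layers 2/3, 4 and 5 none, where 3 counts in 595708 UMIs allow up to 0.0504 in layer 5. Vascular nuclei held 8 UMIs in 8 nuclei of 5 libraries, the highest level of the 11 classes (0.118, 0.0509 to 0.232), and 0.117 by clusters, while SST nuclei held 1 UMI. Low-UMI barcodes held 3 UMIs, 0.0165 (0.00340 to 0.0482). Layer 6b neurons are the remnant of the subplate, and the gate used Ctgf, Cplx3 and Moxd1. They also held the highest Nxph3 level, and 52.0 viral UMIs a nucleus against 18.4 over all excitatory nuclei.

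The receptors of neurexophilins, the neurexins, were distributed otherwise. Nrxn3 stood at 7.60 in SST, 8.31 in VIP and 4.18 in PV nuclei, against 3.47 in excitatory nuclei and 1.98 in OPCs. Nrxn2 stood at 4.65 in SST, 7.62 in VIP and 3.01 in PV nuclei, against 3.82 in excitatory nuclei and 8.55 in OPCs. Both were thus present in VIP nuclei, where Nxph1 was near background. In SST against excitatory nuclei, Nrxn3 was higher by over 2 times, with a fold of 2.16 after 0.1 per 10000 was added to each level, and Nrxn2 was not (1.21). In SST against PV nuclei neither passed 2 times, with folds of 1.80 for Nrxn3 and 1.53 for Nrxn2, and in SST against VIP nuclei neither passed, with folds of 0.916 and 0.615. In OPCs against oligodendrocytes, Nrxn2 was higher by over 2 times (8.55 against 2.19, fold 3.77) and Nrxn3 was not (1.98 against 1.22, fold 1.58).

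Of 24 other neurexin ligands, SST nuclei differed from excitatory nuclei by 2 times or more in 8 of the 21 with 20 or more UMIs, 7 lower and 1 higher. The background of all 12492 genes was 4.19% lower and 3.36% higher. Cbln4, a secreted cerebellin that bridges neurexins to postsynaptic receptors, was the higher one (2.06 in SST and 0.886 in excitatory nuclei, fold 2.20). The lower ones were Cbln2, another cerebellin (fold 0.237), the secreted proteins Fam19a1 (0.269), Fam19a2 (0.385) and C1ql3 (0.325), the adhesion molecule Igsf21 (0.362), the neuroligin Nlgn1 (0.367) and the latrophilin Adgrl2 (0.481). The median log2 fold of the 21 was -0.48, against -0.03 over all genes. Against PV nuclei, 1 of 18 was higher, Cbln4 (2.06 against 0.141, fold 8.98), and 1 lower, Fam19a2 (fold 0.213), where 4.28% and 3.31% of 8631 genes were. Against VIP nuclei, 1 of 19 was higher, again Cbln4 (fold 2.86), and 2 were lower, Cbln2 (0.170 against 6.34, fold 0.0419) and Fam19a2 (0.295), where 5.93% and 4.1% of 8327 genes were. Of the neurexophilins themselves, Nxph1 and Nxph2 passed 2 times higher and Nxph3 lower against excitatory nuclei, both of the 2 with enough UMIs passed higher against VIP, and neither passed against PV. In OPCs against oligodendrocytes, 10 of the 20 other ligands with enough UMIs were higher by 2 times or more and 0 lower, where 13.1% and 13.0% of all genes were, led by Igsf21 (2.70 against 0.203) and Nlgn3 (5.49 against 0.625), both named after their values were seen. None of these counts is a test.

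The genes whose levels ran most like those of Nxph1 over the 11 classes, by Pearson correlation of log2 levels among 7385 genes with 300 or more UMIs outside the gate lists, were Srsf2 (r = 0.94), Rspry1 (0.89), Cacna2d2 (0.89), Phka2 (0.89) and Rab27b (0.88). For Srsf2, a splicing factor, the likeness is in which classes stood high and not in size or in their order. It ran only from 1.77 in oligodendrocytes to 3.17 in NPY nuclei. Cacna2d2, a calcium channel subunit, ran from 0.0442 in vascular nuclei to 3.42 in SST and 4.60 in PV nuclei, with 0.250 in VIP nuclei, but stood at 0.810 in OPCs. Those most like Nxph3 were Ttl (0.93), Scn4b (0.89), Atf6 (0.85), Csnk2a2 (0.85) and Jmjd1c (0.84), and Scn4b, a sodium channel subunit, stood at 0.939 in PV and 0.472 in excitatory nuclei and at 0 in NPY nuclei. The 11 points share their libraries and differ in depth, and no p is given. Nxph2 and Nxph4 had too few UMIs for this measure.

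GRE83, carried by 3 viral barcodes, gave its highest counts per nucleus in PV and SST nuclei, with no firm order between them. SST nuclei held 284 GRE83 UMIs, 0.381 a nucleus (0.338 to 0.428), and PV nuclei 127, 0.421 a nucleus (0.351 to 0.500). NPY nuclei held 0.105 (0.0734 to 0.147), other inhibitory nuclei 0.108 (0.0900 to 0.129), VIP nuclei 0.0725 (0.0489 to 0.103) and excitatory nuclei 0.0329 (0.0277 to 0.0389). OPCs, where the Nxph1 level was 4.23, held 1 GRE83 UMI in 250 nuclei. Microglia held 0 in 212 nuclei, which allows a share of nuclei with a UMI of up to 1.42% (3 counts), and vascular nuclei 3. Over all GREs, OPCs held 5.15 viral UMIs a nucleus and SST nuclei 48.7, at median depths of 333 and 892 non-viral UMIs, and the part of this in the GRE83 values was not tested.

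UMIs of GRE83 came from few nuclei. They were found in 80 of 745 SST nuclei (10.7%, 8.61 to 13.2), 25 of 302 PV nuclei (8.28%, 5.43 to 12.0), 11 of 414 VIP nuclei (2.66%, 1.33 to 4.70) and 82 of 4251 excitatory nuclei (1.93%, 1.54 to 2.39), with 1.24% of low-UMI barcodes as background. The top SST nucleus held 35 UMIs, 12.3% of the class, and the top VIP nucleus 13 of 30. Library means ran from 0.0577 to 0.855 in SST and from 0 to 0.909 in PV, so the PV range held the whole SST range. In VIP nuclei library set 1 gave 28 UMIs (0.122 a nucleus) and set 2 gave 2 (0.0108), and without library 1-5, which gave 14, the mean was 0.0446. In NPY nuclei the sets gave 28 (0.162) and 7 (0.0440). Of the SST total, library set 1 gave 170 UMIs (0.414 a nucleus) and set 2 gave 114 (0.341), and the barcodes gave 74, 62 and 148. In PV nuclei the barcodes gave 5, 41 and 81, although over all kept nuclei they gave 294, 382 and 1072.

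The SST mean was 6.94 times that of all other kept nuclei, with 0.01 added to each, which placed GRE83 at rank 7 of 287, where the median GRE stood at 2.14. The PV mean was 7.10 times that of all other nuclei, rank 2 of 287 (median 1.62). Adding 0.01 draws the values of sparse GREs toward 1, so the ranks depend in part on count. GRE83 held 1748 UMIs over all kept nuclei, rank 95, where the median GRE held 764 and the lower quartile was 127. By SST over PV per nucleus the value was 0.909, rank 207, and the order of this pair depended on the scale: per 10000 non-viral UMIs, GRE83 stood at 3.71 in SST and 2.98 in PV nuclei, whose median depth was 892 and 1364.5 UMIs, and by clusters at 0.387 and 0.240 a nucleus. On the scale of non-viral UMIs, low-UMI barcodes stood at 2.47, and NPY (1.05), VIP (0.937) and excitatory nuclei (0.255) below them. For gated excitatory nuclei against all other kept nuclei the value was 0.638, rank 287, the lowest of all GREs. That base included the 21624 nuclei in no gate, and excitatory clusters held 17752 nuclei, 21.7% of them in the excitatory gate. The value is therefore not a comparison with non-excitatory nuclei. Each barcode alone gave an SST value above 1, at 6.44, 4.63 and 5.32. As a share of all viral UMIs, GRE83 made up 0.783% (0.695 to 0.880) in SST, 1.10% (0.920 to 1.31) in PV, 0.600% (0.427 to 0.819) in oligodendrocytes, 0.500% (0.349 to 0.695) in NPY, 0.443% (0.299 to 0.632) in VIP and 0.179% (0.151 to 0.212) in excitatory nuclei, with 0.350% (0.319 to 0.384) in low-UMI barcodes. The SST value fell to 2.53 times that of all other nuclei on that scale. Binomial intervals treat UMIs as independent, and 1 infected nucleus gives many.

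**Figure D3:**
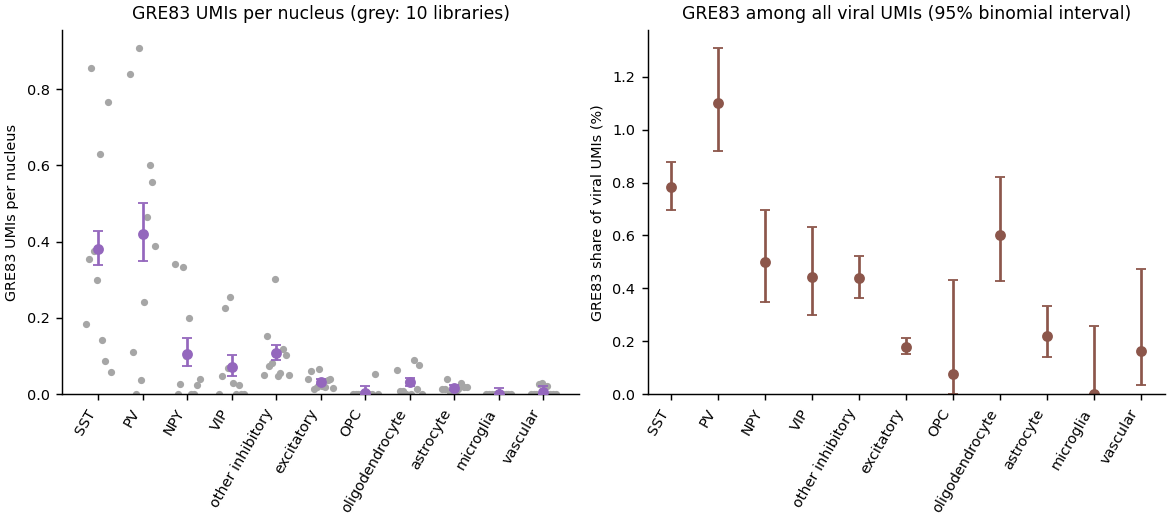
GRE83 UMIs per nucleus (left; coloured points, pooled with 95% Poisson intervals; grey points, 10 libraries) and GRE83 as a percentage of all viral UMIs (right; 95% binomial intervals) in the 11 nucleus classes. SST (0.381) and PV (0.421) stand above the other classes on the left, and PV (1.10%) and SST (0.783%) on the right, while OPCs have 1 UMI.

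Nuclei with and without a GRE83 UMI had overlapping Nxph1 intervals. SST nuclei with a GRE83 UMI held Nxph1 at 5.13 (3.89 to 6.65, 80 nuclei) and those without at 4.83 (4.31 to 5.39, 665 nuclei). PV nuclei held 2.92 (1.56 to 5.00, 25 nuclei) and 2.96 (2.44 to 3.56, 277 nuclei). The SST nuclei with a GRE83 UMI carried 144 viral UMIs a nucleus against 37.2 in those without. By Npy, the 315 SST nuclei with 2 or more Npy UMIs held 0.565 GRE83 UMIs a nucleus (0.485 to 0.654) and the 325 with none 0.185 (0.141 to 0.238). They held 73.0 and 29.3 viral UMIs a nucleus, at median depths of 1086 and 720 non-viral UMIs. As a share of viral UMIs the values were 0.774% (0.665 to 0.896) and 0.631% (0.482 to 0.811), whose intervals overlap.

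ATAC reads at the Nxph1 locus were highest in PV, lower in SST and lowest in VIP. Of these classes, the pooled RNA level was higher in SST than in PV and lowest in VIP. With doubled marker minimums the RNA interval of SST over PV (0.967 to 1.84) included 1. Over the 192 regions assigned to Nxph1 the CPM summed to 309 and 301 in PV, 214 and 219 in SST and 127 and 93.4 in VIP libraries, and the groups did not overlap. Of these regions, 25 held a called peak in at least 1 library and 9 passed the filter on low counts. PV exceeded VIP in 8 of the 9 and SST exceeded VIP in 6 of the 9, with none lower, at an adjusted p under 0.05 (edgeR quasi-likelihood test over 40338 regions, Benjamini-Hochberg). Of all 40338 regions, 24.6% were higher in PV than in VIP and 17.8% higher in SST than in VIP. In pooled nuclei, fewer nuclei with an open region and less opening in each cannot be told apart.

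Over the GENCODE start of Nxph1 (chr6:8948025-8949494, exon) the libraries held 23.9 and 22.8 CPM in PV, 8.40 and 9.31 in SST and 2.98 and 1.79 in VIP. The 3 groups were fully apart, with PV above VIP by 3.30 ± 0.44 on the log2 scale (SE, edgeR adjusted p = 3.27e-05), SST above VIP by 1.91 ± 0.50 (adjusted p = 0.00586) and SST below PV by -1.39 ± 0.36 (adjusted p = 0.0242). The last of these was not called without either PV library, by DESeq2 or without the filter on low counts, and in the RNA SST stood above PV. Without the filter, 0 of all 310118 regions were called in that contrast in either direction. The next region (chr6:8949467-8950278, exon), which holds the printed RefSeq promoter window, had 16.8 and 16.6 in PV, 13.6 and 9.75 in SST and 3.48 and 5.36 in VIP. There PV and SST lay closer, with SST against PV at -0.52 ± 0.37 (adjusted p = 0.407) while SST stood above VIP (adjusted p = 0.0175). An intronic region 48284 bases in, named after its values were seen (chr6:8996321-8997110) held 32.5 and 29.4 in PV, 22.6 and 18.6 in SST and 7.94 and 7.60 in VIP, with the same order of the means. The log2 difference of PV over VIP there was 2.01 ± 0.34 (adjusted p = 0.000192).

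**Figure D4:**
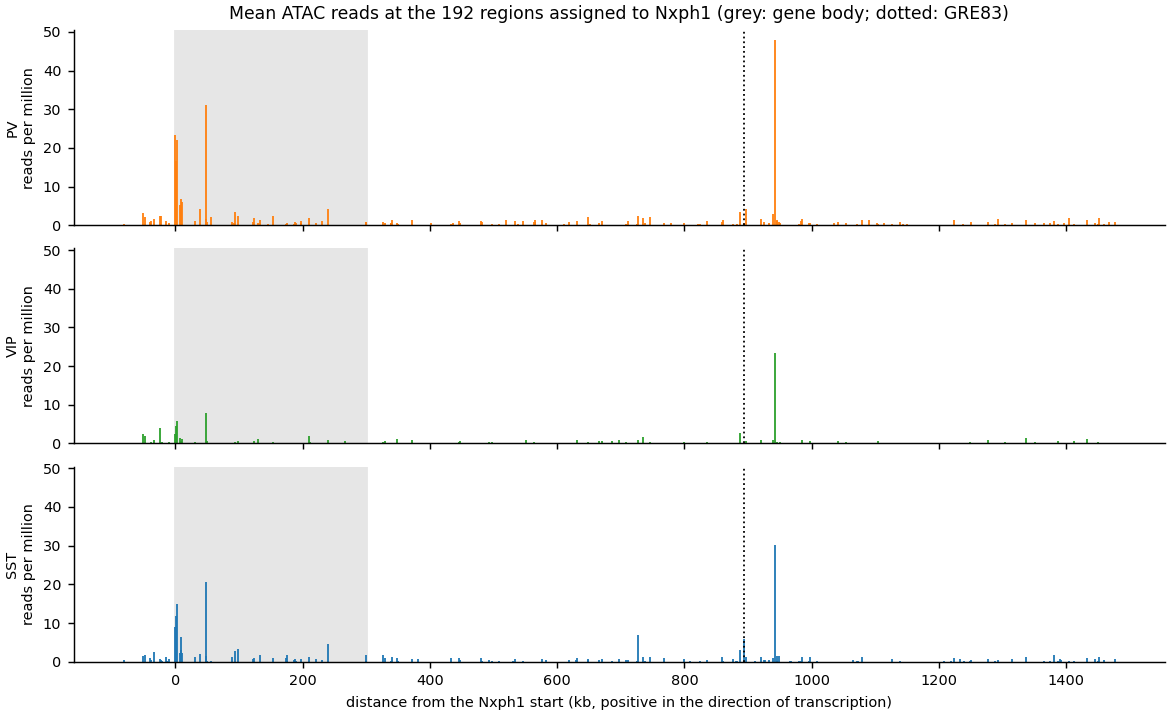
Mean ATAC CPM (2 libraries a group; vertical axes, 1 scale) at each of the 192 regions assigned to Nxph1 against the distance from its start (kb); grey marks the gene and the dotted line GRE83. The tall lines near the start and 48284 bases in are highest in PV and lowest in VIP, and the line past GRE83 (941579 bases) is tall in all 3 groups.

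In SST against the PV and VIP mean, 2 of the 9 Nxph1 regions were higher by edgeR, where 8.15% of all regions were, and 0 were called by DESeq2 or without the filter on low counts. Over all regions DESeq2 called 368 of 27531 higher, and the fit without the filter 411 of 310118. An intronic region 8635 bases in (chr6:8956649-8957485) held 8.92 and 3.99 CPM in SST, 8.14 and 5.55 in PV and 0.496 and 0.447 in VIP, a log2 difference of 1.74 ± 0.56 (edgeR adjusted p = 0.0455). It overlapped fully between SST and PV, where the log2 difference was -0.12 ± 0.49 (adjusted p = 0.914), so VIP alone stood apart. An intergenic region 726274 bases past the start (chr6:9674343-9675068) held 6.30 and 7.54 in SST, 2.54 and 2.22 in PV and 1.49 and 0.447 in VIP, a log2 difference of 2.17 ± 0.50 (adjusted p = 0.00743). There SST stood above both, although SST against PV alone did not pass (1.52 ± 0.55, adjusted p = 0.0962). A peak was called in this region in the SST libraries and in no other.

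The region around GRE83 (chr6:9842334-9842934) had 5 and 21 reads in SST, 0 and 2 in PV and 0 in both VIP libraries, or 2.62 and 9.31, 0 and 1.11, and 0 CPM. A peak was called in 1 of 6 libraries, the second of SST. It fell below the filter on low counts, so no test covers it, and these are the libraries it was chosen on. Set beside the viral counts, ATAC reads were near 0 in PV while the PV viral level stood with that of SST. The next tested region, 941579 bases past the start (chr6:9889701-9890321), also named after its values were seen, was open in all groups, with 54.4 and 41.6 in PV, 28.3 and 31.9 in SST and 27.8 and 18.8 in VIP.

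**Figure D5:**
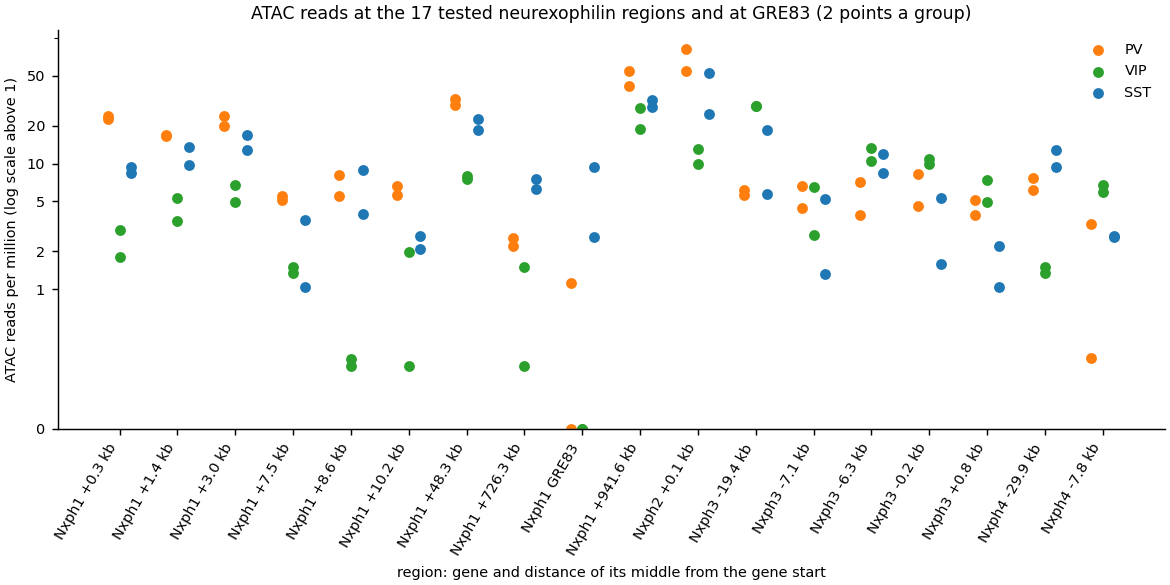
ATAC CPM (axis logarithmic above 1) in each of 6 libraries at the 17 tested regions assigned to a neurexophilin and at GRE83, labelled by distance from the gene start. PV lies above VIP at the Nxph1 and Nxph2 starts, VIP above SST at the Nxph3 start, and GRE83 has reads in SST and 1 PV library.

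Only 3 regions were assigned to Nxph2, and the one over its start (chr2:23320867-23321822, exon) carried nearly all reads. It held 81.4 and 54.9 CPM in PV, 52.5 and 24.8 in SST and 9.93 and 13.0 in VIP. PV exceeded VIP by 2.59 ± 0.35 on the log2 scale (edgeR adjusted p = 3.31e-05) and SST exceeded VIP by 1.75 ± 0.36 (adjusted p = 0.00103). SST against PV gave -0.84 ± 0.31 (adjusted p = 0.0995), and all libraries of both lay above both VIP libraries. The order of the means was that of the pooled Nxph2 RNA.

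Nxph3 (chr11:95509845-95514570, minus strand) had 18 regions, 5 tested. The region over its start (chr11:95514348-95515148, exon) held 10.9 and 9.83 CPM in VIP, 4.58 and 8.32 in PV and 1.57 and 5.32 in SST, and SST lay below VIP by -1.49 ± 0.52 on the log2 scale (edgeR adjusted p = 0.0329). The intronic region beside it (chr11:95513382-95514141), named after its values were seen, gave -1.81 ± 0.60 (adjusted p = 0.0256). The calls of SST below VIP, 3 in all and each at Nxph3, fell to 0 without the first SST library, by DESeq2 and without the filter on low counts, and to 1 without the first VIP library. Over all regions DESeq2 called 3846 of 57594 lower in SST than in VIP, and the fit without the filter 5078 of 310118. A region 19385 bases before the start was named after its values were seen (chr11:95533548-95534363), with 28.8 and 28.6 in VIP, 5.59 and 6.10 in PV and 5.77 and 18.6 in SST, and PV lay below VIP there by -2.26 ± 0.46 (adjusted p = 0.000781). No excitatory nuclei were profiled by ATAC, so the class with the Nxph3 RNA has no accessibility value.

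Nxph4 (chr10:127525473-127534559, minus strand) had 12 regions, 2 tested, both inside the neighbouring gene Lrp1. The region 29928 bases before the Nxph4 start (chr10:127564093-127564883) held 9.45 and 12.9 CPM in SST, 7.63 and 6.10 in PV and 1.49 and 1.34 in VIP, and SST exceeded the PV and VIP mean by 1.83 ± 0.41 (edgeR adjusted p = 0.00598). Assignment here is by nearest start alone, and the region over the Nxph4 start did not pass the filter.

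Over all 4 genes, 3 of 17 tested regions were higher in SST than in the PV and VIP mean and 0 lower, where 8.15% and 5.41% of all 40338 regions were. At an unadjusted p under 0.05 edgeR gave 3 and 2, and DESeq2 called 0 in either direction of the 10 it tested. Over all regions DESeq2 called 368 higher and 449 lower of 27531 in that contrast. PV exceeded VIP in 10 and fell below it in 2, against 24.6% in each direction. SST exceeded VIP in 8 and fell below it in 3, against 17.8% and 18.4%. Of the 21 regions that DESeq2 tested in each, it called 4 higher and 1 lower for PV against VIP, where it called 2280 and 6655 of all 57594. For SST against VIP it called 2 higher and 0 lower, where it called 1383 and 3846 of all 57594. SST exceeded PV in 0 and fell below it in 1, against 3.96% and 4.33%, with 2 and 5 at an unadjusted p under 0.05 and 0 in either direction by DESeq2. In that contrast DESeq2 tested 8 of these regions and called 209 higher and 70 lower of all 21519. The contrasts share libraries. The median log2 difference of the 17 was 1.89 for PV against VIP and -0.59 for SST against PV, where all regions gave 0.04 and -0.01. Leaving out the second VIP library took the calls from 12 to 7 for PV against VIP and from 11 to 7 for SST against VIP. The single call of SST against PV was not made without either PV library, and 2 calls were made without either VIP library and 4 without the first SST library. Without the second SST library 1 region was called lower in SST.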

How the data were processed

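Per the study's methods, nuclei were encapsulated by inDrops and mapped to GRCm38 with a contig for each viral barcode, and viral transcripts were also enriched by PCR; the authors deposited UMI counts per nuclear barcode. ATAC reads were trimmed (Trimmomatic 0.33), aligned to mm10 (Subread 1.4.6-p3), stripped of duplicates and deposited as counts per reference region, beside peak lists with a −log10 q-value that the authors took from MACS2 and intersected with HOMER peaks, called per library. The deposited region table also gave a mean phyloP score, and the table of GREs held the authors' own specificity columns, which were not used.

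The members, gene lists and comparisons were chosen with earlier results of these data known. Nuclei with over 200 non-viral UMIs were gated by marker minimums (3 Sst, 2 Vip, 2 Pvalb or 2 Npy UMIs, 46 markers in all; Hs3st4 was not analysed here). Libraries held 2496224 to 3041931 UMIs in kept nuclei. Doublets were not called; nuclei passing 2 gates (21) or none (21603) were left out. Ratios carry exact conditional intervals at 95%, and folds use 0.1 per 10000, or 0.01 per nucleus for GRE83. Named genes were the 4 members, the neurexins (1 gene of the lists is not reported here), up to 8 other ligands past 2 times in SST nuclei by size, the 5 most alike genes of each member with 300 UMIs, and the regions over each start, called in SST, or GRE83.

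Regions were assigned to the nearest protein-coding start (GENCODE M21) and fitted by edgeR 4.0.16 (R 4.3.3; filterByExpr, TMM, quasi-likelihood, common biological coefficient of variation 0.181) over all regions, with 1801883 to 2256073 reads per library in reference regions. On simulated counts for SST against the PV and VIP mean (40338 regions, 200 raised 4-fold, log2 2), 194 were recovered with 12 false calls. A peak counted when it shared 1 bp or more with a region. Alternatives were DESeq2 1.42.0, RLE size factors, no filter, a replicate block, each library left out, a 100 kb window, doubled gates, over 500 UMIs, Leiden clusters (leidenalg 0.10.2), each library set, and other pseudocounts and bases. Clusters were named by the majority of gated nuclei and a marker among their leading genes, a rule set after the clusters were seen. Values given for PV by clusters rest on a cluster with 21.6% of its 1281 nuclei in the PV gate.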

Additional observations from a re-analysis of the deposited data

Results flagged for a closer look

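Among the 10 libraries, Nxph3 in other inhibitory nuclei was highest in library 2-2, at 0.541 UMIs per 10000 on 108 nuclei, far from the next highest, 0.243. GRE83 in other inhibitory nuclei was highest in library 1-5, at 0.302 UMIs per nucleus on 139 nuclei, against 0.152 in the next. Each gap exceeded Dixon's 95% limit for 10 values, which about 1 in 20 groups of normally distributed values passes by chance. The Nxph3 value of library 2-2 rests on 7 UMIs. Not every wide gap is listed: Nxph2 in oligodendrocytes stood at 0.752 in library 2-3, on 5 UMIs, and at 0 without it.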

How the results depend on the processing

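Nxph1 in SST over excitatory nuclei was 44.6 times, 68.3 with doubled marker minimums, 28.6 by Leiden clusters, 77.9 in library set 1 alone and 23.8 with 0.1 per 10000 added. Its SST over PV ratio of 1.65 was 1.32 both with doubled minimums (0.967 to 1.84) and by clusters (1.16 to 1.51). Nxph2 in PV over SST, 1.80 pooled, was 1.25 without library 2-1. With doubled minimums it was 0.784 (0.149 to 2.66), on 3 PV and 19 SST UMIs. The SST value of GRE83, 6.94, ranged from 5.88 (without library 1-3) to 7.71 (without library 2-3) with 1 library left out, and was 8.07 and 3.29 with 0.001 and 0.1 added, 6.12 without the top nucleus, 9.11 against excitatory nuclei and 2.53 as a share of viral UMIs, an alternative chosen after seeing the data. Its PV value of 7.10 ran from 3.38 (as that share) to 10.0, with 4.43 by clusters. Among regions, DESeq2 called 0 (SST against the PV and VIP mean, higher), 5 (PV against VIP), 0 (SST against PV) and 2 (SST against VIP), and without a filter on low counts the numbers were 0, 6, 0 and 1, where edgeR called 3, 12, 1 and 11; more or other regions enter those tests. With 1 library left out, the counts ran from 7 to 14, 0 to 4 and 7 to 13 in the latter 3, stayed at 3 for higher in SST, and ran from 0 to 1 for lower in SST. By DESeq2 and without the filter, fewer regions were called over all regions too, down to 0 of 310118 for SST against PV without the filter. The cause of these moves was not tested. Same-numbered ATAC libraries were not paired: their deviations correlated at 0.023 (SST and PV), 0.029 (SST and VIP) and -0.037 (PV and VIP), and the fit with the replicate number as a block gave 3, 12, 1 and 11 calls, as without it. Over VIP nuclei the Nxph1 level of SST, 26.0 times, ran from 17.3 to 42.6, and that of OPCs over oligodendrocytes, 83.5 times, from 28.7 to 254. Of 225 alternative values, 1 reversed in direction, that of Nxph2 with doubled minimums, whose interval included 1. The Nxph1 ratio of NPY over PV was not among the 225. Depth limits Nxph4 (36 UMIs in gated nuclei) and Nxph2 (138), and GRE83 in ATAC (0 to 21 reads).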
